A study of Homo sapiens with 17 samples.

Results

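The ratio of small RNA reads with doxycycline (Dox) over water was compared between 31 d and 13 d of culture, locus by locus, in K562, a human erythroleukemia cell line that carries an inducible short hairpin RNA against Drosha. Loci were stretches of overlapping alignments on one strand of build hg19. Of 113995 loci formed, the 21444 with a mean of at least 10 reads per library were tested, and 497 of these were hairpin-shaped, with reads of 20 to 24 nt in 2 stacks whose 5′ ends lay 30 to 48 nt apart. Loci were formed and tested by read counts summed over libraries, not by ratios, from alignments that had a water read in their table. Where a locus is described because of its ratios or calls, this is said beside it. The 4 groups were Dox for 13 d, water for 13 d, Dox for 31 d and water for 31 d, with 3 libraries each, and all of them carry the hairpin construct. Dox was present throughout at 1 µg/mL, and control wells were grown in parallel without it. The labels call the replicates independent and biological, and whether the cells come from 1 clone is not stated in them. Each deposited table sets 1 Dox library beside the water library with its day and replicate number, and 6 tables entered. The tables have no header, and that their first read column is water and their second Dox was taken from the description of the comparison, not from the labels.

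Drosha, together with DGCR8, cuts the hairpin out of a primary microRNA transcript in the nucleus, and Dicer then cuts the hairpin to a duplex of about mature length, from which an Argonaute protein keeps 1 strand. The 7 bases from position 2 to 8, the seed, pair with target messenger RNAs, and microRNAs with the same seed are grouped as a family. A short hairpin RNA enters this route after the Drosha step and is cut by Dicer, so that its own product needs no Drosha. Mature microRNAs in complex with Argonaute are in general long-lived, and a fall in production can take days to show in their level.

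Names could be given to 53 hairpins in 16 of 93 clusters, of which 52 hairpins were tested and 49 of these were hairpin-shaped by the rule above. The names rest on the chromosome, strand and arm spacing of a cluster in RefSeq microRNAs (table of build GRCh38.p14), not on a sequence match. Only the distances between its positions were used, and no position was carried over to hg19. Solitary hairpins have no such spacing and are given by hg19 position. The mature sequences below, from RefSeq, are those of the 2 clusters and the 2 pairs of hairpins described first, ordered so that microRNAs of a shared seed stand together; the capitals mark the seed, bases 2 to 8.
miR-17-5p: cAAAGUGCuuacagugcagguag
miR-20a-5p: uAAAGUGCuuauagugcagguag
miR-93-5p: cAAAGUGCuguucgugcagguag
miR-106b-5p: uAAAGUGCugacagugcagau
miR-18a-5p: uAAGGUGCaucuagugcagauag
miR-19a-3p: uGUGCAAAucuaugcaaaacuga
miR-19b-3p: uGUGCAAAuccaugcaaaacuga
miR-25-3p: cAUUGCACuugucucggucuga
miR-92a-3p: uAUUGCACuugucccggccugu
miR-15b-5p: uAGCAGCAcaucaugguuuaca
miR-16-5p: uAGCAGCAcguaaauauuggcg
miR-24-3p: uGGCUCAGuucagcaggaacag

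Library totals ranged from 43102043 to 64770002 reads in the 12 libraries, and 57.4% to 91.5% of them stood in the tables. A table lists an alignment only where its water library has at least 1 read, so Dox reads at alignments without water reads are missing from every ratio. Such missing reads can only lower a ratio, and their part in the shares of loci called lower was not tested. The tables of 13 d listed 871027, 1869305 and 1551223 alignments, and those of 31 d 2994766, 1883449 and 2928996. The loss may therefore differ between the days, and its part in the difference between them was not tested either. Levels are given as RPM, each read count scaled by its library total, and ratios set Dox over water on the log2 scale, with 0.5 reads added per library where a value of a single table is given. The Dox libraries of 13 d replicate 3 and 31 d replicate 2 held 2.95% and 0.361% of listed reads at 25 to 30 nt, less than the 7.58% and 4.78% of their water libraries, whereas in the other 4 tables this share was higher with Dox. The libraries of 13 d replicates 1 and 2 stood apart in another way. Of 165 hairpin-shaped loci with at least 1000 reads on average, 16 had water levels in both that were more than 4 times below the lowest of the other 4 water libraries, and MIR17, MIR20A, MIR18A, MIR19A, MIR19B1 and MIR96 were among them; 3 were more than 4 times above the highest. With Dox, 6 were below and 4 above in this way, and none of these hairpins was among the 6.

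The hairpin on chromosome 5 that Dox induces was far above its water level at both times, and its ratio was lower at 31 d than at 13 d on both strands, by a difference that did not pass the test across all loci. Its plus-strand locus lies at 31511237 to 31511267 and its minus-strand locus at 31511232 to 31511264 of hg19. Neither locus is hairpin-shaped by the rule above, and both count among the other loci. No sequence of the construct was at hand, so how the 2 loci relate to it was not checked. Chromosome 5 carries the DROSHA gene, but no hg19 annotation was at hand to place the site in an exon. On the plus strand the Dox libraries had 5301, 8157 and 8561 RPM at 13 d and 2020.0, 2771 and 4330.5 at 31 d. The 3 Dox values of the later time lay below all 3 of the earlier one. The water libraries had 4.79, 3.99 and 15.5 at 13 d and 15.1, 6.43 and 5.21 at 31 d, and these overlapped. The plus strand showed log2 ratios of 10.11, 10.99 and 9.11 at 13 d and 7.06, 8.75 and 9.70 at 31 d, and the 2 times overlapped.

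On the minus strand the Dox libraries had 2425, 5479 and 18738 RPM at 13 d and 3230.4, 4116 and 5307 at 31 d. The water libraries had 15.3, 15.7 and 49.4 at 13 d and 54.8, 65.5 and 63.7 at 31 d. Here the Dox levels of the 2 times overlapped, while every water level at 31 d was above every one at 13 d. The minus strand showed log2 ratios of 7.31, 8.45 and 8.57 at 13 d and 5.88, 5.97 and 6.38 at 31 d, with no overlap.

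In the fit across all loci the plus strand had a log2 ratio of 10.07 ± 0.86 (SE, n = 3 tables) at 13 d and 8.52 ± 0.81 at 31 d, both past the threshold (edgeR adjusted p = 4.23e-06 and 5.19e-05). The difference, 31 d minus 13 d, was -1.55 ± 0.86, with a 95% interval of -3.36 to 0.25 (edgeR adjusted p = 0.505). The minus strand had 8.11 ± 0.69 and 6.08 ± 0.63 (edgeR adjusted p = 4.23e-06 and 6.06e-05), and its difference was -2.03 ± 0.73, with an interval of -3.56 to -0.50 (edgeR adjusted p = 0.429). An exact permutation test of the 6 table ratios, two-sided, gave p = 0.2 for the plus and p = 0.1 for the minus strand (0.467 for both after adjustment over 14 such tests), and 0.1 is the smallest p that 3 tables against 3 can give. The same exact permutation test on log2 RPM gave p = 0.1 for the plus strand in the Dox libraries and p = 0.1 for the minus strand in the water libraries (adjusted p = 0.467 for both). The plus-strand difference shrank to -0.85 without 31 d replicate 1, and was -1.09 without 13 d replicate 2.

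**Figure D1:**
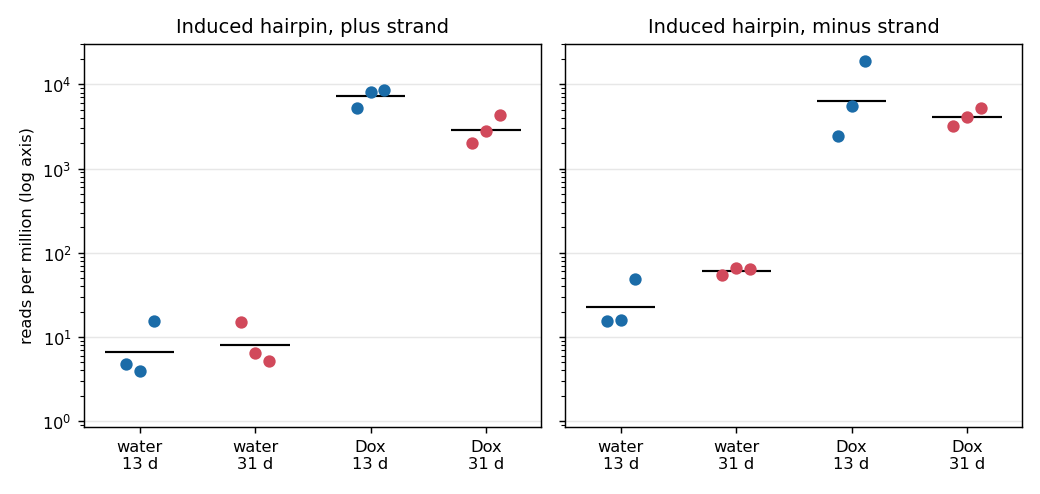
RPM, scaled read count (log axis) at the induced hairpin on its plus strand (left) and minus strand (right) in each of the 12 libraries; 1 point is 1 library and a bar is the mean on the log scale. On the plus strand the 3 Dox libraries of 31 d, at 2020.0 to 4330.5, sit below the 3 of 13 d, and on the minus strand the 3 water libraries of 31 d, at 54.8 to 65.5, sit above the 3 of 13 d.

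Hairpin-shaped loci were lower with Dox at both times, and their middle value barely moved between them. The median log2 ratio of the 497 was -1.47, -1.53 and -2.47 in the 3 tables of 13 d and -1.51, -2.22 and -1.53 in those of 31 d. The lowest table of each day was the one whose Dox library held a smaller share of 25 to 30 nt reads than water. The part of this, and of the 10 to 17 nt reads, in the medians was not tested. The mean of the table medians was -1.82 ± 0.56 (SD, n = 3) at 13 d and -1.75 ± 0.40 at 31 d, a difference of 0.07 that was smaller than the spread between tables (exact permutation test, two-sided, p = 0.8, adjusted p = 0.8). Loci of other shapes had table medians of -0.54, -1.40 and -1.75 at 13 d and -0.81, -0.61 and -0.66 at 31 d, and their mean moved by 0.53 (exact permutation p = 0.4, adjusted p = 0.7). The gap between the hairpin-shaped and all loci was -0.58 ± 0.40 at 13 d and -1.03 ± 0.47 at 31 d, which overlapped too (exact permutation p = 0.5, adjusted p = 0.7). With fewer than 4 tables a day, none of these tests could pass 0.05. The sign of this difference of mean table medians depends on the scaling: it was -0.25 with DESeq2's size factors and -0.45 after each table was centred on its median.

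**Figure D2:**
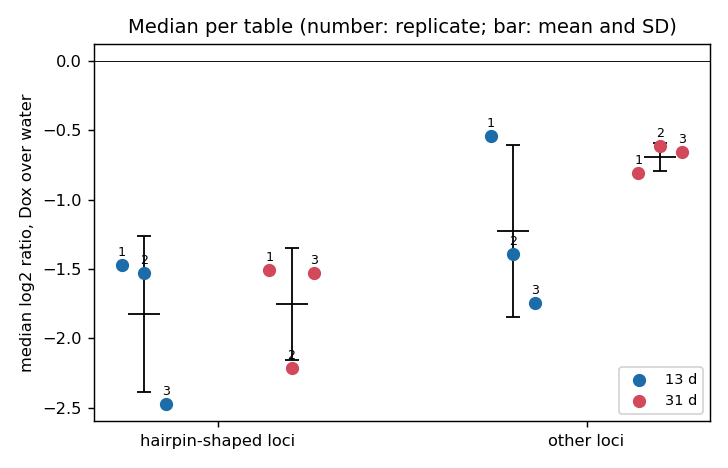
Median log2 ratio of Dox over water per table, for the 497 hairpin-shaped loci and for the other loci tested; points are tables with their replicate number, and bars are the mean and SD of 3 tables. The hairpin-shaped medians of the 2 days overlap, from -2.47 to -1.47 at 13 d and from -2.22 to -1.51 at 31 d.

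Locus by locus, the fall seen at 13 d was mostly seen again at 31 d. At 13 d, 231 of the 497 hairpin-shaped loci fell with Dox and 39 rose (edgeR quasi-likelihood test, Benjamini-Hochberg adjusted p under 0.05), where 25.3% of all loci tested were called lower and 5.54% higher. At 31 d, 215 fell and 20 rose, where 15.4% of all loci were called lower and 1.14% higher. The same 186 loci were lower at both times, which is 80.5% of those called at 13 d and 86.5% of those called at 31 d. Over all loci these shares were 39.7% and 65.1%, and 10.1% of all loci tested were lower at both. Both calls come from 1 fit, in which each time has its own libraries and the 2 times share the estimate of the spread. The 17 that were higher at both times, of 169 such loci among all 21444, had log2 ratios of 2.21 to 4.73 at 13 d and 1.93 to 4.30 at 31 d. No hairpin-shaped locus was called in opposite directions, and only 2 of all 21444 loci were, so this is not particular to hairpins. At 274 (55.1%) the ratio was below 1 in all 6 tables, as it was at 28.9% of all loci. These counts depend on the scaling: after centring, 89 hairpin-shaped loci fell and 79 rose at 13 d, while 121 fell and 31 rose at 31 d. DESeq2 gave 210 and 73, then 237 and 57, and TMM 180 and 50, then 147 and 29. They also rest on single tables: without 13 d replicate 3, 28 hairpin-shaped loci were called lower at 13 d, and without 31 d replicate 3, 107 were called lower at 31 d.

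The difference between the times passed the threshold at 0 of the 497 and at 0 of all 21444 loci, so that the share called was 0% in both. At an unadjusted p under 0.05 there were 2278 loci (10.6%), of which 24 were hairpin-shaped (4.83% of these). The lowest adjusted p of edgeR was 0.251. DESeq2, with its own scaling and filter, called 107 higher and 204 lower among 7309 loci with an adjusted p, 1 of them hairpin-shaped, and limma on the log2 ratios called 0 (2480 at an unadjusted p under 0.05). These data cannot show that ratios stayed the same. The 95% interval of the difference lay within a 2-fold change in either direction at 0 of the 497, and its median half-width was 2.15 on the log2 scale. Counts were also simulated for all 21444 loci with their own spread, and differences were set at loci drawn from all of them. Of these differences, 0% of log2 size 1 or 2 were called, 2% of size 3 and 6% of size 4. The median half-width over all loci was 2.94, so these shares need not hold for the hairpin-shaped loci.

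Across the 497 loci the fitted log2 ratios of the 2 times correlated at Pearson r = 0.86 and Spearman rho = 0.87; the points share the same 6 tables and are not independent. The fitted difference had a median of 0.07 and quartiles of -0.69 and 0.72. It was above 0 at 260 and below 0 at 237. The median was -0.24 over the 226 loci with 10 to 100 reads on average, 0.19 over the 106 with 100 to 1000, and 0.15 over the 165 with more. All 3 ratios of 31 d lay above all 3 of 13 d at 54 hairpin-shaped loci (10.9%), against 10.7% of all loci, and below them at 36 (7.24%), against 7.69%. Among the 165 with the most reads these counts were 30 and 6.

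**Figure D3:**
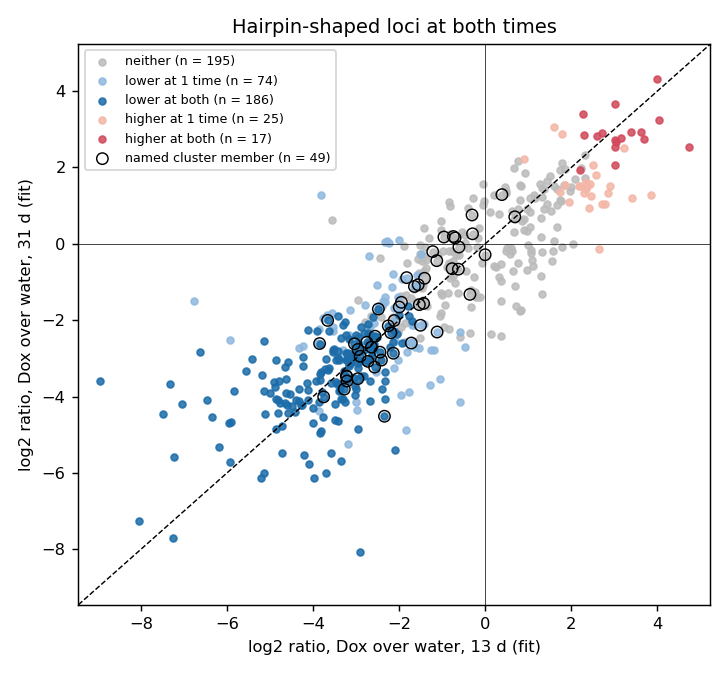
Fitted log2 ratio of Dox over water at 13 d (x axis) and 31 d (y axis) for the 497 hairpin-shaped loci, coloured by their calls at each time, with rings around the 49 members of named clusters and a dashed line of equal ratio. The 186 loci lower at both times and the 17 higher at both lie along that line on either side of 0.

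The 2 arms of a hairpin had similar medians, but the difference between the times was only loosely shared by them. In 244 hairpin-shaped loci where each arm had at least 10 reads on average, the mean log2 ratio of the 5p arm had a median of -2.13 at 13 d and -1.66 at 31 d, and that of the 3p arm -1.99 and -1.67. The difference between the times had the same sign on both arms in 173 of the 244 (70.9%), and across these the 2 differences correlated at Pearson r = 0.46. The 5p arm of MIR19B1, with 430 reads on average, had a difference of 1.77 and its 3p arm one of -0.98. In MIR15B the arms had 1 sign but unlike sizes: the 5p arm went from -4.00 to -2.68 and its 3p arm from -2.50 to -2.16.

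The miR-17~92 cluster on chromosome 13, whose microRNAs promote proliferation and are abundant in many leukemias, held both loci near their water level and loci far below it. Of its 6 members 3 fell with Dox at 13 d and 3 at 31 d, 2 of them at both, and 0 rose, where 25.3%, 15.4% and 10.1% of all loci were lower. The median of their fitted log2 ratios was -1.64 at 13 d and -1.83 at 31 d, beside -1.51 and -0.77 over all loci tested. At 0 of the 6 did the difference pass.

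MIR17, at 92002850 to 92002935, had log2 ratios of -0.51, 0.66 and -2.04 at 13 d and -0.16, -1.37 and -0.48 at 31 d. MIR20A, at 92003299 to 92003384, had -0.53, 0.75 and -2.62 at 13 d and -0.18, -1.41 and -0.38 at 31 d. The 2 share a seed, and in both the ratio was above 1 only in 13 d replicate 2. Their differences were -0.04 ± 0.82 (SE) and 0.12 ± 0.88 (edgeR adjusted p = 0.997 and 0.972).

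The levels under these ratios moved far more. MIR17 had 604, 434 and 6872 RPM in the water libraries of 13 d, and 7341, 6379 and 7416 in those of 31 d. With Dox it had 423, 686 and 1668 at 13 d and 6582, 2475 and 5318 at 31 d. The libraries of 13 d replicates 1 and 2 were thus low with water and with Dox. MIR92A1 of the same cluster had 13429, 10842 and 12540 RPM in the water libraries of 13 d and 9825, 10582 and 11761 in those of 31 d. Of its 434402 reads on average, 432936 lay on the 3p arm. A further hairpin also gives that mature sequence, so these reads cannot show the level of this member alone. The ratio within a table does not see a shift that its Dox and water library share.

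MIR19A, at 92003135 to 92003249, showed the deepest fall at 31 d in the cluster. It had log2 ratios of -1.95, -1.95 and -3.13 at 13 d and -3.17, -6.21 and -4.24 at 31 d, and all 3 of 31 d lay below all 3 of 13 d. It fell at both times (-2.34 ± 0.65, edgeR adjusted p = 0.0146, and -4.51 ± 0.73, edgeR adjusted p = 0.00139). The difference of -2.17 ± 0.92 had an interval of -4.09 to -0.26 but did not pass over all loci (edgeR adjusted p = 0.438). Its water level was 24.04, 36.4 and 1298 RPM at 13 d and 1664, 959 and 839 at 31 d, so 13 d replicates 1 and 2 were again low, and their part in the difference was not tested. Without 31 d replicate 2 the difference was -1.37, and it was -0.78 in a fit that set group means against each other with no term per table.

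MIR19B1, at 92003461 to 92003523, shares the seed of miR-19a and its mature 3p sequence with a further hairpin. It had ratios of -1.36, -0.91 and -2.92 at 13 d and -1.66, -3.91 and -2.27 at 31 d, which overlapped (difference -0.88 ± 0.91, edgeR adjusted p = 0.701). MIR18A, at 92002984 to 92003077, fell at both times (log2 ratios of -3.27 ± 0.65 and -3.81 ± 0.67, edgeR adjusted p = 0.00359 and 0.00208), with a difference of -0.53 ± 0.86. MIR92A1, at 92003578 to 92003643, had ratios of -0.93, -0.99 and -2.81 at 13 d and -0.83, -1.48 and -0.91 at 31 d. It passed at 13 d (-1.56 ± 0.55, edgeR adjusted p = 0.0388) and missed the threshold at 31 d (-1.07 ± 0.52, edgeR adjusted p = 0.164), but the difference of 0.49 ± 0.75 was not past the threshold (edgeR adjusted p = 0.808).

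The miR-106b~25 cluster on chromosome 7 is a paralog of miR-17~92, with seeds in common, and the differences of its 3 members lay nearer to 0 than their standard errors. MIR25, at 99691189 to 99691274, had -2.59, -2.85 and -4.22 at 13 d and -3.27, -4.03 and -3.49 at 31 d, and fell at both (-3.21 ± 0.58 and -3.59 ± 0.58; edgeR adjusted p = 0.00248 and 0.00139). MIR106B, at 99691601 to 99691704, had -1.40, -2.12 and -3.06, then -2.16, -2.53 and -2.30, and also fell at both (-2.19 ± 0.58 and -2.33 ± 0.57; edgeR adjusted p = 0.0118 and 0.0101). MIR93, at 99691397 to 99691487, had -1.32, -0.56 and -2.42, then -1.22, -2.27 and -1.202, and passed at neither time (edgeR adjusted p = 0.0663 and 0.068). The differences of the 3 were -0.38, -0.14 and -0.13, and the widest of their intervals, that of MIR93, ran from -1.81 to 1.55. miR-25 and miR-92a share a seed, and at both times MIR25 had the lower fitted ratio of the pair, -3.21 beside -1.56 and -3.59 beside -1.07. A test between these 2 loci was not run, and a further hairpin also gives miR-92a-3p.

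**Figure D4:**
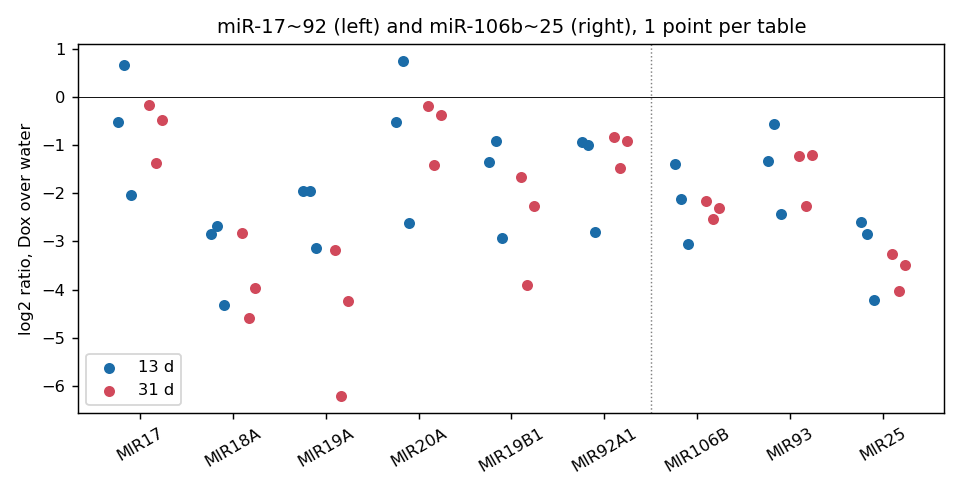
Log2 ratio of Dox over water in each table for the 6 hairpins of miR-17~92 (left of the dotted line) and the 3 of miR-106b~25 (right), 13 d in blue and 31 d in red. MIR19A is the 1 hairpin of the 9 whose 3 ratios at 31 d, -6.21 to -3.17, lie below its 3 at 13 d.

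The other named clusters added 43 hairpins. Over all 52 named hairpins, 29 fell at 13 d, 28 at 31 d and 25 at both, and 0 rose at either time. Over all loci 25.3%, 15.4% and 10.1% were lower at 13 d, at 31 d and at both. The median fitted log2 ratio of the 52 was -2.06 at 13 d and -2.07 at 31 d. The 3 ratios of 31 d lay above those of 13 d at 8 of the 52 (15.4%, against 10.7% of all loci) and below them at 1 (1.92%, against 7.69%). Those 8 were MIR29C, MIR29B2, MIR15B, MIRLET7E, MIR23A, MIR27A, MIR24-2 and MIR24-1, and the 1 was MIR19A. At 0 of the 52 did the difference pass. Some of the 52, MIR29B2, MIR30C1 and MIR365A among them, have a mature sequence that a further hairpin also gives.

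**Figure D5:**
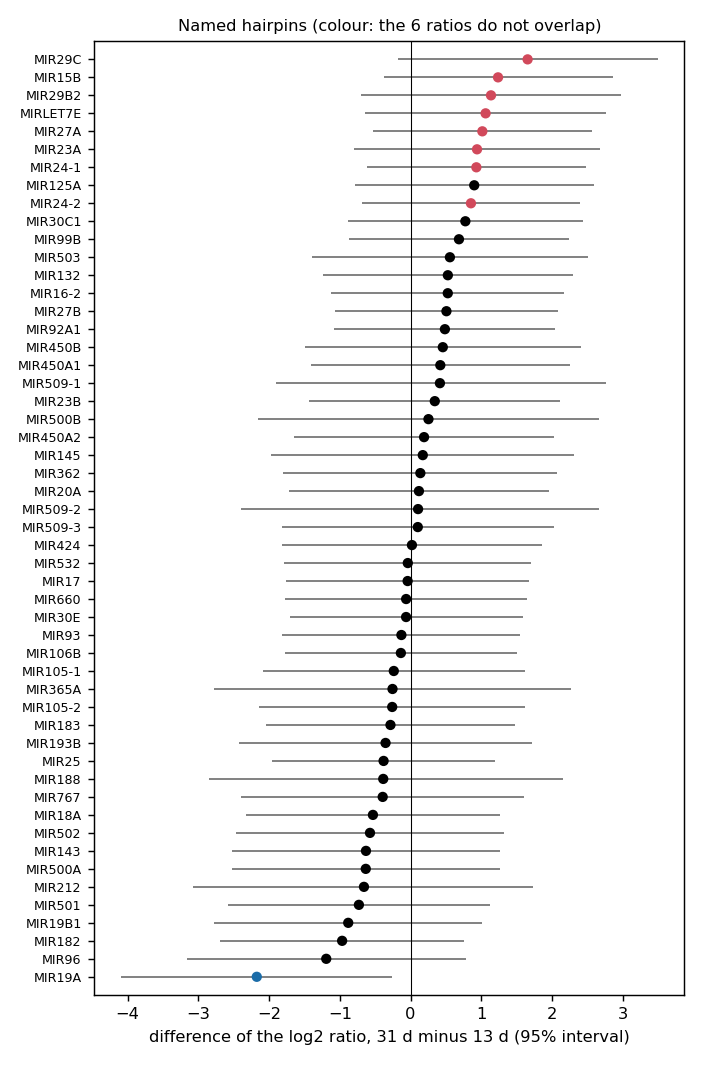
Difference of the fitted log2 ratio, 31 d minus 13 d, with its 95% interval for the named hairpins, sorted by size. Red marks the 8 hairpins whose 3 ratios at 31 d lie above all 3 at 13 d and blue the 1 whose ratios lie below; the interval leaves out 0 for MIR19A alone.

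MIR15B and MIR16-2 come from 1 transcript on chromosome 3 and share a seed that is known for repressing cell cycle genes. MIR15B, at 160122373 to 160122458, had 60.8, 32.1 and 22.5 RPM with Dox at 13 d and 90.4, 65.9 and 96.0 at 31 d, beside 599, 554 and 395 and then 450, 473 and 613 with water. It had log2 ratios of -3.30, -4.11 and -4.13 at 13 d and -2.31, -2.84 and -2.68 at 31 d, nearer to 1 in every table of the later time. It fell at both times (-3.85 ± 0.61, edgeR adjusted p = 0.00133, and -2.61 ± 0.58, edgeR adjusted p = 0.00559), and the difference was 1.24 ± 0.77, with an interval of -0.38 to 2.86 (edgeR adjusted p = 0.54). MIR16-2, at 160122520 to 160122608, whose 5p sequence a further hairpin also gives, had -0.77, 0.17 and -1.23 at 13 d and -0.38, -0.05 and 0.18 at 31 d and passed at neither.

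The miR-232724 clusters on chromosomes 9 and 19 give the same mature miR-24-3p and near-identical miR-23 and miR-27, so reads of miR-24-3p cannot be told apart between MIR24-1 and MIR24-2. MIR24-1, at 97848285 to 97848372 of chromosome 9, had log2 ratios of -0.71, -0.48 and -1.04 at 13 d and 0.18, 0.26 and 0.13 at 31 d. MIR24-2, at 13947099 to 13947183 of chromosome 19, had -0.59, -0.48 and -1.04, then 0.15, 0.12 and 0.19. All 3 tables of 13 d were thus below 1 and all 3 of 31 d above it, as at 313 of all 21444 loci. The differences of 0.93 ± 0.74 and 0.85 ± 0.74 did not pass (edgeR adjusted p = 0.622 and 0.65). These values rest on the shared 3p arm. The 5p arm of MIR24-1, with 130 reads on average, had 0.02, -0.58 and -1.15, then -1.43, -2.05 and -1.02, a difference of -0.93 in place of 0.93. The 5p arm of MIR24-2 had -0.02, -0.57 and -0.73, then 0.25, -1.08 and 0.26. Neither 5p arm repeated the pattern. MIR27A went from -0.75, -1.37 and -1.53 to 0.07, -0.22 and -0.47, and MIR23A from -1.21, -1.24 and -3.09 to -0.74, -0.94 and -0.98. The 3 hairpins of chromosome 9 had differences of 0.34, 0.51 and 0.93 and those of chromosome 19 of 0.94, 1.01 and 0.85, all above 0 and none past the threshold.

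MIR29C and MIR29B2 come from 1 transcript on chromosome 1, and neither difference passed. MIR29C, at 207975209 to 207975269, had -3.55, -3.38 and -4.05 at 13 d and -1.51, -2.99 and -1.55 at 31 d, and its fitted values of -3.66 ± 0.68 and -2.01 ± 0.64 both passed (edgeR adjusted p = 0.00266 and 0.0389). Its difference, 1.66 ± 0.88, was the largest above 0 among the named hairpins (interval -0.18 to 3.49, edgeR adjusted p = 0.494). MIR29B2 had -1.43, -0.58 and -0.87, then -0.26, 0.11 and 0.68 (difference 1.14, edgeR adjusted p = 0.614). MIRLET7E, the 1 of 12 listed let-7 hairpins that could be named, lies with MIR99B and MIR125A on chromosome 19. It had ratios of 0.05, 0.33 and -1.33 at 13 d and 0.48, 0.86 and 0.93 at 31 d. None of these 3 was called lower or higher at either time.

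The miR-30 hairpins MIR30E and MIR30C1 on chromosome 1 were the 2 of 6 listed members that could be named. Both fell at both times, as did 10.1% of all loci. MIR30E had -2.04, -2.21 and -3.71, then -2.26, -3.29 and -2.57 (difference -0.06 ± 0.79), and MIR30C1 -1.85, -2.18 and -3.44, then -1.69, -2.13 and -1.30 (difference 0.78 ± 0.80).

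Most named hairpins on chromosome X fell at both times, with exceptions. Over all loci tested, 10.1% were lower at both times and 28.9% had a ratio below 1 in all 6 tables. Of the 8 hairpins of the MIR532 to MIR502 cluster, 6 fell at both times and all 8 had a ratio below 1 in every table. The cluster's median fitted log2 ratio went from -2.49 to -2.90. MIR500B was lowest, with -4.17, -3.18 and -5.99 at 13 d and -3.18, -6.35 and -3.37 at 31 d. MIR105-1, MIR767 and MIR105-2 fell at both times, with differences of -0.24, -0.39 and -0.26. In the cluster of MIR450 and MIR424, 3 of 5 tested members fell at both times, while MIR424 had 0.24, 0.99 and 0.83, then -0.67, 1.204 and 1.51, and MIR503 stood near its water level. In the cluster of MIR514B and the MIR509 hairpins, 1 of 3 tested members fell, at both times.

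The miR-18396182 cluster on chromosome 7, first known from sensory organs, had its 3 differences below 0. MIR96 had -0.61, -0.61 and -2.17 at 13 d and -0.69, -4.13 and -2.16 at 31 d and passed at 31 d (-2.31 ± 0.71, edgeR adjusted p = 0.0318) but not at 13 d. Its difference of -1.19 ± 0.94 did not pass (edgeR adjusted p = 0.621) and was -0.31 without 31 d replicate 2 and -2.03 without 31 d replicate 1. With no term per table it was 0.06. MIR193B and MIR365A on chromosome 16 fell at both times, as did 10.1% of all loci, with little difference (-0.35 ± 0.99 and -0.25 ± 1.204). MIR132 and MIR212 on chromosome 17 and MIR143 and MIR145 on chromosome 5 had differences from -0.66 to 0.53, none past the threshold.

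Of the 10 hairpin-shaped loci with the most water reads, 4 fell at 13 d and 1 at 31 d, beside 25.3% and 15.4% of all loci. The first, on chromosome 7 at 25989536 to 25989621 (minus strand), had log2 ratios of 0.04, -0.95 and -0.28 at 13 d and -0.11, -0.69 and 0.46 at 31 d, and passed at neither. The second, on chromosome 17 at 57918605 to 57918723 (plus strand), had -1.68, -1.35 and -1.47 at 13 d and -0.58, -0.66 and 0.46 at 31 d, with no overlap. It fell at 13 d (-1.50 ± 0.47, edgeR adjusted p = 0.0238) and was at -0.26 ± 0.46 at 31 d (edgeR adjusted p = 0.736), and the difference of 1.24 ± 0.65 had an interval of -0.13 to 2.60 (edgeR adjusted p = 0.493). The third, on chromosome 9 at 139565048 to 139565156, had 0.63, 0.09 and -0.36, then 0.29, 1.27 and 0.92. The fourth, on chromosome 10 at 104196275 to 104196338, had -0.22, 0.22 and -1.68, then 0.09, -0.41 and 1.28. A locus on chromosome 17 at 46657202 to 46657311 fell at 13 d (-1.59 ± 0.55, edgeR adjusted p = 0.0382) and was at -0.81 ± 0.55 at 31 d (edgeR adjusted p = 0.32).

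A pair of the 10 lies on chromosome 8. The locus at 141742679 to 141742762 had -3.23, -4.07 and -4.24 at 13 d and -3.01, -4.05 and -3.17 at 31 d. It fell at both times (edgeR adjusted p = 0.000931 and 0.00158), with a difference of 0.44 ± 0.73. The locus at 135817087 to 135817203 had -0.10, -0.06 and -1.26, then 0.02, -0.64 and 0.66. The other 3 of the 10 were MIR92A1, MIR20A and MIR17. Of the 10 differences 9 were above 0, and none passed.

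The summed level of hairpin-shaped loci is a measure apart from their median. They made up 32.9%, 22.5% and 22.3% of the library total with Dox at 13 d and 32.4%, 37.1% and 63.6% at 31 d, beside 38.6%, 32.4% and 44.7%, then 39.6%, 53.9% and 50.5% with water. The log2 ratio of these sums was -0.23, -0.53 and -1.005 at 13 d and -0.29, -0.54 and 0.33 at 31 d (exact permutation test, two-sided, p = 0.5, adjusted p = 0.7). In 31 d replicate 3 alone the share was higher with Dox than with water. Reads of 10 to 17 nt, which enter no locus, were 10.9% of listed reads with Dox and 24.4% with water there. Their part in this was not tested.

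At 1 hairpin-shaped locus DESeq2 called the difference where edgeR did not. It lies on chromosome 4 at 20529922 to 20529982 (plus strand) and is named here because its call was seen. It showed log2 ratios of -2.17, -2.00 and -2.12 at 13 d and -3.88, -6.66 and -5.61 at 31 d, a further drop in every table. Its Dox libraries held 1129, 825 and 1847 reads at 13 d and 872, 203 and 333 at 31 d, and its water libraries 5508, 4115 and 7198, then 13209, 18301 and 13402. The difference was -3.30 ± 0.91 by edgeR (adjusted p = 0.429) and -3.67 by DESeq2 (adjusted p = 0.023).

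Hairpin-shaped loci within 10000 nt of each other formed 5 groups of at least 5, chosen after their positions were seen. A group of 14 on chromosome 19, from 54194149 to 54240175, had a median fitted log2 ratio of 0.44 at 13 d and -0.67 at 31 d. In it 1 locus was called lower at 13 d and 5 at 31 d, where 25.3% and 15.4% of all loci were. Its table medians were 0.02, 1.04 and 0.33, then -1.09, -1.94 and 0.78, so 31 d replicate 3 lay on the other side of 1. A group of 5 on chromosome 14, from 101335412 to 101351110, had -1.02 and 0.59, with table medians of -1.14, -1.27 and -0.90 at 13 d and 0.59, -0.03 and 1.21 at 31 d. At 0 of these loci did the difference pass, and neighbours can share sequence. The other 3 groups were the clusters of MIR17, MIR532 and MIR450A1.

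Of the 17 hairpin-shaped loci that rose at both times, 3 are given as examples, chosen after their values were seen. The highest at 31 d, on chromosome 17 at 75085463 to 75085575, had fitted log2 ratios of 3.99 at 13 d and 4.30 at 31 d. The next, on chromosome 19 at 6416442 to 6416500, had 3.02 and 3.66. A locus on chromosome 6, at 30552109 to 30552196, had 4.03 and 3.23. The differences were 0.32 ± 1.01, 0.64 ± 1.03 and -0.80 ± 0.90, none past the threshold.

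Loci that were not hairpin-shaped are given by their commonest read length, with no test between the classes; in each class the table medians of the 2 days overlapped. The 12703 whose commonest length was 18 or 19 nt had a median fitted log2 ratio of -1.53 at 13 d and -0.42 at 31 d. By the same measure the 6287 of 20 to 24 nt had -1.67 and -0.82. The 1280 loci of 25 to 30 nt had -0.94 and -1.75, and the 677 of 31 nt or more -0.998 and -1.73. In the 18 to 19 nt class the table medians were -0.45, -1.64 and -1.54, then -0.93, -0.17 and -0.49. In the 25 to 30 nt class the table medians stood at -0.30, -0.15 and -2.12 at 13 d and -0.23, -3.63 and -1.72 at 31 d. The lowest table of each day was again 13 d replicate 3 and 31 d replicate 2, the tables whose Dox libraries held a smaller share of that length than water; their part in the class medians was not tested.

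The other locus types were led by 3 loci with the most water reads. The first, on chromosome 10 at 69524343 to 69524373 (plus strand), with a commonest length of 20 nt, had log2 ratios of 1.71, 1.64 and 2.79 at 13 d and -0.89, 0.30 and 0.90 at 31 d, with no overlap. It rose with Dox at 13 d (2.04 ± 0.51, edgeR adjusted p = 0.00929) and stood at 0.11 ± 0.50 at 31 d (edgeR adjusted p = 0.913). The difference was -1.93 ± 0.71, with an interval of -3.43 to -0.44 (edgeR adjusted p = 0.429). Its level varied widely within a group, from 8588 to 277625 RPM in the Dox libraries of 13 d.

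The second, on chromosome 10 at 63882019 to 63882042 (minus strand), had -3.26, -4.62 and -2.84 at 13 d and -1.99, -2.47 and -1.70 at 31 d, again with no overlap. It fell at both times (-3.56 ± 0.57, edgeR adjusted p = 0.00135, and -2.05 ± 0.53, edgeR adjusted p = 0.0127), and the difference of 1.51 ± 0.73 did not pass (edgeR adjusted p = 0.475). The third, on chromosome 11 at 122874317 to 122874376, had a commonest length of 36 nt and ratios of -0.10, -1.18 and -4.23, then 0.38, -3.75 and -1.21, and passed at neither time.

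The largest differences among loci with at least 100 reads on average and no overlap between the times did not pass (lowest edgeR adjusted p = 0.251). Of the 6 largest above 0 and the 6 largest below 0, 0 were hairpin-shaped and 8 had a commonest length of 18 or 19 nt. At some of them most water reads came from 1 library. At a locus on chromosome 2, 171856241 to 171856259, 1377 of the 1387 water reads came from 13 d replicate 3. The Dox libraries of 13 d held 0, 0 and 1 listed reads. In 13 d replicate 1 the water library held 0 reads there, so its table could not list Dox reads. The log2 ratio of 0.11 in that table is thus no measurement, yet it entered the choice by no overlap. On chromosome 6 at 132244257 to 132244274, 1208 of its 1467 water reads came from 13 d replicate 3. A locus on chromosome X at 71493745 to 71493811 had 0 Dox reads in every library of 13 d beside 11, 12 and 18 with water, and 1318, 21 and 85 beside 1133, 20 and 416 at 31 d; no fold is given against a group at 0. Below 0, too, 2909 of the 4296 water reads on chromosome X at 76058399 to 76058418 came from 31 d replicate 3. On chromosome 5 at 125162469 to 125162487, 1146 of 1464 came from 31 d replicate 2. A locus on chromosome 1, also below 0, had high counts in all 3 water libraries of 31 d. The locus, at 164601000 to 164601019, had 26, 9 and 25 Dox reads beside 16, 28 and 3 with water at 13 d, and 2, 24 and 22 beside 351, 357 and 418 at 31 d. Its difference was -5.77 ± 1.34 (edgeR adjusted p = 0.429). Alignments this short can fit many places in the genome, and the placing of reads that match several positions is not stated in the sources at hand.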

How the data were processed

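Small RNA was sequenced from 12 libraries of 13 d and 31 d, and each of 6 deposited tables pairs a Dox with a water library; 3 d tables entered an alternative alone, and the untreated library was not analysed here. The submitters' processing notes name Bowtie2 2.2.9 and the build hg19 (GRCh37); the handling of reads that match several positions was not stated. Each row of the authors' tables holds an alignment's read count in both libraries, its RPKM in both and their ratio. The deposited RPKM times length over reads gave 1 whole library total per column, used as the library size.

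The loci, lists and named hairpins were chosen with earlier results of these data known. Alignments of at least 18 nt with 10 reads over the 12 libraries, up to 30 nt apart on 1 strand, formed a locus; runs over 120 nt were split by doubling the read minimum, after loci were seen to run together. A locus was tested at a mean of at least 10 reads. Clusters were named where at least 4 arms and 50% of a cluster's RefSeq arms (gaps up to 10000 nt) matched within 2 nt and at least 2 hairpins were hairpin-shaped, a setting chosen after 23 searches on wrong chromosomes had been looked at; under it these placed 0.087 clusters on average and at most 2. Of the fixed lists, miR-17~92 matched 6 of 6, miR-106b~25 3 of 3, miR-30 2 of 6 and let-7 1 of 12; the erythroid, mirtron, capped, Y RNA, vault and RNA component lists and the cell type markers matched 0, so the labelled cell type could not be checked.

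Counts were fitted with edgeR 4.0.16 (quasi-likelihood, robust) in R 4.3.3, with 1 term per table and 1 Dox-over-water ratio per day, and Benjamini-Hochberg adjustment at 0.05 over all loci tested. Standard errors come from the F statistic and are left out where a group was at 0. Named were the induced hairpin, the 10 hairpin-shaped and 3 other loci with the most water reads, the 6 largest differences of each sign without overlap, and the named clusters. The script was tested on simulated data. Alternatives were TMM, DESeq2 1.42.0, limma 3.58.1 on ratios with 0.5 reads added, centring, other minima, 20 to 24 nt reads, shared alignments, 3 d tables, the replicate number and each table left out. Intervals cover the spread between tables, and p-values measure only the spread between these samples.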

Additional observations from a re-analysis of the deposited data

Results flagged for a closer look

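MIR24-1 and MIR24-2 had a ratio of Dox over water below 1 in all 3 tables of 13 d and above 1 in all 3 tables of 31 d. Among all 21444 loci tested 313 had this pattern, and among the 497 hairpin-shaped loci 4. The crossing of 1 rests on scaling by library totals. All loci had table medians of -0.58, -1.40 and -1.76 at 13 d. In 13 d replicates 2 and 3 both hairpins lay above these medians, and the crossing was not tested under another scaling. The differences were 0.93 and 0.85 on the log2 scale. They were tested in the fit across all loci and did not pass (edgeR adjusted p = 0.622 and 0.65). The hairpins share the mature miR-24-3p, so they are not independent, and the pattern is that of this 3p arm. The 5p arm of MIR24-1 had a mean log2 ratio of -0.57 at 13 d and -1.50 at 31 d, a difference of the opposite sign (-0.93), and the 5p arm of MIR24-2 was at -1.08 in 31 d replicate 2.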

How the results depend on the processing

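The difference between the times was called at 0 loci in most fits. The exceptions were DESeq2 (107 higher, 204 lower), no minimum level (4 higher) and, leaving out each table in turn, 0 to 6 higher and 0 to 2 lower; with the replicate number as a block, 2 were higher and 1 lower. Deviations from the day means of same-numbered tables correlated at 0.26, -0.19 and 0.14 over all loci and at 0.31, 0.03 and 0.15 over hairpin-shaped loci. Those of tables with unlike numbers ran from -0.34 to 0.26 and from -0.25 to 0.14. With 3 tables a day, these values cannot settle whether the numbers pair the tables. With the block, 404 loci were higher and 5160 lower at 31 d, and 5089 were lower at 31 d when limma had it.

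At 13 d the count of loci higher with Dox, 1189, became 2315 with DESeq2, 2597 after centring, 721 with no minimum, 715 with a minimum 5 times higher, 604 with 20 to 24 nt reads, and 25 to 1641 leaving out each table. The count lower, 5431, became 3213 with TMM, 1831 after centring, 1847 with the higher minimum, 2368 with 20 to 24 nt reads, and 203 to 6618 leaving out each table, lowest without 13 d replicate 3 (203) and replicate 2 (946). At 31 d the count higher, 245, became 473 with TMM, 895 with DESeq2, 675 after centring, 146 with the higher minimum, 395 with shared alignments, and 31 to 986 leaving out each table. The count lower, 3311, became 1957 with TMM, 6979 with no minimum, 934 with the higher minimum, 1605 with 20 to 24 nt reads, and 1407 to 4934 leaving out each table. Fewer loci are tested under the higher minimum and with 20 to 24 nt reads; otherwise the cause was not tested. At 13 d 17.96% of called loci were higher, 58.6% after centring, 37.0% with DESeq2 and 32.3% with TMM; at 31 d 6.89%, 22.4%, 19.3% and 19.5%.

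Alternatives chosen after seeing the data were a fit without 13 d replicate 3 and 31 d replicate 2, with 267 higher and 1170 lower at 13 d and 34 and 1274 at 31 d, and a fit with no term per table, with 10 and 98 at 13 d and 2 and 66 at 31 d.

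The difference of the mean table medians of hairpin-shaped loci, 0.07, was -0.25 with DESeq2, -0.45 after centring, -0.02 without those 2 tables, and -0.25 to 0.31 leaving out each table, so its sign is not settled; with the block it was 0.07. The median of the fitted differences, 0.07 over these loci, was -0.27 with DESeq2, -0.49 after centring and -0.19 to 0.23 leaving out each table; over all loci DESeq2 moved it from 0.41 to -0.03. The induced hairpin kept its sign under every alternative run, from -2.17 to -0.85 on the plus and -2.43 to -1.80 on the minus strand leaving out each table, and its difference passed under none. Of 74 other loci described, 37 had another sign of the difference under at least 1 alternative.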
